A study of Mus musculus with 3 samples.

Results

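Transcripts of the translation initiation factors were followed in RAW 264.7 cells, a mouse macrophage line, on 1-colour (Cy3) microarrays. All gene probes whose symbol begins with Eif and a digit from 1 to 6 were taken, except those of the Eif2ak kinases. The rule uses names and no measured value, though the set was picked with earlier results of these data known. It gave 52 genes of the 26840 with a symbol, 101 probes of 56605 and 110 spots of 59305. There was 1 array for each of 3 conditions. The first was macrophages given LPS alone, a TLR4 agonist from bacterial walls, at 50 ng/mL. The second was given *Lactobacillus rhamnosus* CRL1505 for 24 h at 50000000 cells/mL and then LPS (CRL1505 + LPS), and the third *L. plantarum* CRL1506 in the same way (CRL1506 + LPS). All 3 conditions therefore carried LPS, for which the design text gives 12 h and the sample descriptions give 3 h. Non-stimulated macrophages were not analysed here. The comparisons address whether transcript levels under the TLR4 agonist differed with either strain. A difference present before LPS cannot be told from an altered response to it.

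Translation initiation assembles a ribosome at the start codon. The ternary complex of eIF2, GTP and the initiator tRNA joins the small subunit together with eIF1, eIF1A, eIF3 and eIF5. The cap-binding complex eIF4F, made of the cap binder eIF4E, the scaffold eIF4G and the helicase eIF4A, brings in the mRNA, and eIF5B joins the large subunit. The cycle is held back at eIF2, whose phosphorylation blocks its exchange factor eIF2B, and at eIF4E, which the 4E-BPs sequester until mTOR phosphorylates them. In macrophages both points are known to set how far mRNAs of inflammatory mediators are translated. Arrays measure transcripts, so neither phosphorylation nor protein output enters the values given here.

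With 1 array per condition no test between conditions could be made and no p-value is given. A level is the log2 processed signal of a probe minus the 75th percentile of the gene spots on its array, and a log2 ratio is the difference of 2 such levels of the same probe. A gene was represented by its brightest probe. The only measures of error lie within the arrays. Repeated spots of a probe gave log2 ratios to LPS with a median SD of 0.05 with CRL1505 and 0.04 with CRL1506, and different probes of a gene differed by a median SD of 0.23 and 0.21. The second measure is the yardstick used here, and values within it are called indistinguishable. The array of LPS and that of CRL1506 + LPS shared slide 1 and scan 1, while the CRL1505 + LPS array lay on slide 2 and in scan 2, so that the effect of CRL1505 and that of the slide cannot be told apart. Between 48.5% and 55.3% of the gene spots were well above background, the lower value on the CRL1505 + LPS array. All 9 macrophage markers were well above background on every array, with summed levels of 567 to 701 times the 75th percentile. These sums hide moves of single markers in both directions. With CRL1505 + LPS the log2 ratios to LPS were 2.27 for *Adgre1*, 2.40 for *Fcgr1* and -1.47 for *Csf1r*. The other macrophage markers lay between -0.38 and 0.32. With CRL1506 + LPS *Adgre1*, *Fcgr1* and *Csf1r* moved the same way by less, and the others ran from -0.83 (*Tlr4*) to 0.035 (*Cd68*). The part of these moves in the results was not tested. The T cell list, carried by *Lck* and *Cd3e*, reached 4.39 with LPS, 9.64 with CRL1505 + LPS and 5.78 with CRL1506 + LPS (3 or 4 of 4 genes detected), and its part in the results was not tested. The B cell list reached 0.19 to 0.29, with 2 of 4 genes detected on every array (*Ms4a1* and *Pax5*). The neutrophil list reached 1.20 to 1.35 (3 of 4), and the epithelial list 0.07 to 0.31, with only *Epcam* detected (with LPS and with CRL1506 + LPS). The fibroblast list went from 0.11 with LPS (0 of 4 detected) to 0.24 with CRL1505 + LPS (1 of 4, *Col1a2*) and 0.42 with CRL1506 + LPS (3 of 4, *Col1a1*, *Col1a2* and *Dcn*), and its part in the results was not tested.

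On every array 50 of the 52 genes were well above background. The exceptions were *Eif2s3y*, the Y-linked copy of the eIF2 gamma subunit, and *Eif2c5*, an Argonaute-like symbol that only shares the prefix. Initiation factor transcripts varied less than the array as a whole. The genes they are set against include dim ones detected on only 1 of the compared arrays, and brightness was not matched. With CRL1505 + LPS their log2 ratios to LPS ran from -0.38 to 1.56 with a median of 0.21 and an SD of 0.40, against a median of 0.01 and an SD of 0.89 for all 15609 genes compared. With CRL1506 + LPS they ran from -0.71 to 1.42 with a median of -0.05 and an SD of 0.28, against -0.06 and 0.67 for all 16284 genes.

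**Figure D1:**
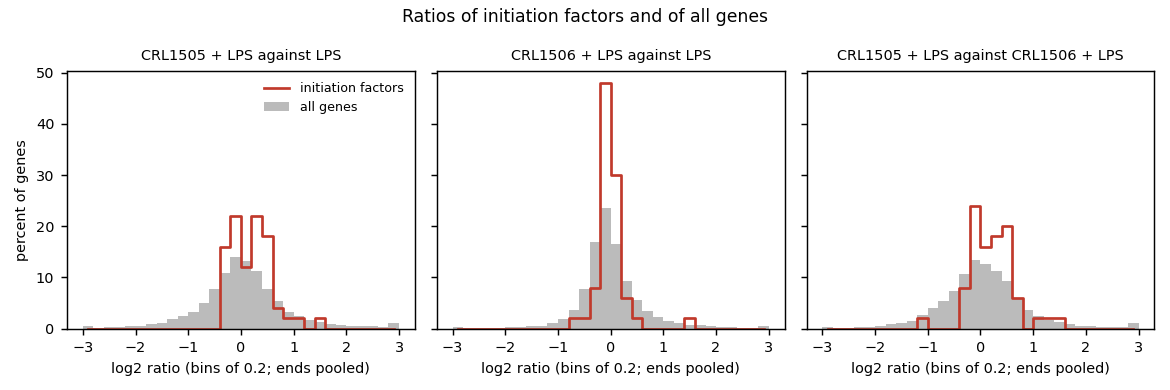
Percent of genes per bin of log2 ratio (0.2 wide) for all genes (grey bars) and for the 50 measured initiation factors (red line) in the 3 comparisons. The initiation factors lie closer to 0 than the array does, with SDs of 0.40 against 0.89 for CRL1505 + LPS and 0.28 against 0.67 for CRL1506 + LPS. The grey bars include dim genes, and brightness was not matched.

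At the 2-fold threshold, 2 of 50 initiation factors were higher with CRL1505 + LPS than with LPS, where 9.92% of all genes were, and none was lower, where 8.41% of all genes were. With CRL1506 + LPS, 1 of 50 was at least 2-fold higher (5.67% of all genes) and none lower (3.52% of all genes). Between the strains, 3 of 50 were at least 2-fold higher with CRL1505 + LPS (9.01% of all genes) and 1 was lower (7.46% of all genes). Large differences were thus no more frequent among initiation factors than on the array. Of the 13126 genes detected on all arrays, as the 50 were, 1005 were at least 2-fold higher and 860 lower with CRL1505 + LPS. With CRL1506 + LPS these were 526 and 233. By sign alone, 31 of 50 (62.0%) were above 0 with CRL1505 + LPS, beside 50.7% of all genes, 20 of 50 (40.0%) with CRL1506 + LPS, beside 42.7%, and 33 of 50 (66.0%) were higher with CRL1505 + LPS than with CRL1506 + LPS, beside 51.6%. Set against the yardstick, CRL1505 + LPS left 19 of 50 indistinguishable from LPS, 23 higher and 8 lower, where 35.7% of all genes were higher and 33.7% lower by that measure. CRL1506 + LPS left 39 indistinguishable, 5 higher and 6 lower, where 25.2% of all genes were higher and 32.1% lower.

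The sign of the median of CRL1505 + LPS depended on the scale of the arrays. Scaling to the spike-in probes lowered the median of all genes to -0.48 and that of the initiation factors to -0.30, and shifting by the median raised them to 0.33 and 0.50. Relative to the median of all genes, the initiation factors stayed higher by 0.05 to 0.20 under all the settings tried. Between the strains even this difference changed sign, from 0.14 as reported to -0.04 after quantile normalization and -0.07 after normexp correction.

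**Figure D2:**
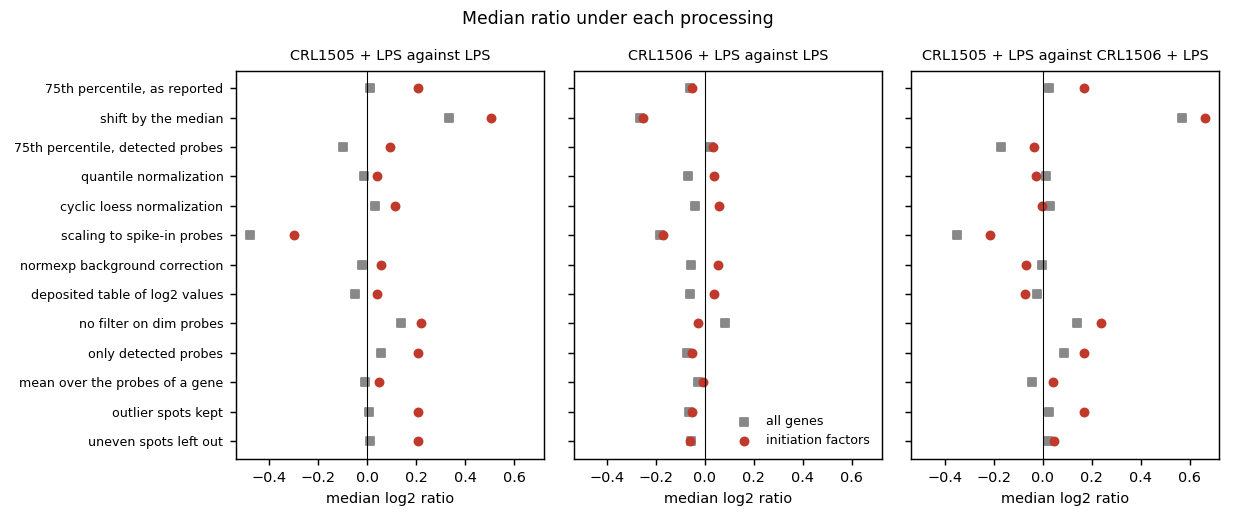
Median log2 ratio of all genes (grey squares) and of the initiation factors (red circles) in the 3 comparisons under each processing, which is named at the left. For CRL1505 + LPS against LPS the circle lies to the right of the square in every row, while its position relative to 0 changes from -0.30 to 0.50.

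Group by group, the ratios of CRL1505 + LPS to LPS had their highest medians in eIF1 and eIF1A (0.35, 3 of 5 above 0), in the cap-binding and scaffold proteins of eIF4F (0.34, 7 of 8) and in eIF3 (0.33, 9 of 14). They were lowest in the 4E-BPs (-0.27, 1 of 3 above 0) and in eIF2B (-0.13, 1 of 5). Relative to all genes, the first 3 medians stayed above 0 over all scalings and normalizations, at 0.16 to 0.34, 0.18 to 0.33 and 0.18 to 0.32, and the last 2 stayed below, at -0.38 to -0.28 and -0.23 to -0.14. These scalings and normalizations keep the brightest probe of a gene, and group medians were not taken with the mean over probes. That mean lowered the median of all initiation factors with CRL1505 + LPS from 0.21 to 0.05. With CRL1506 + LPS all 8 group medians lay between -0.16 and 0.02.

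**Figure D3:**
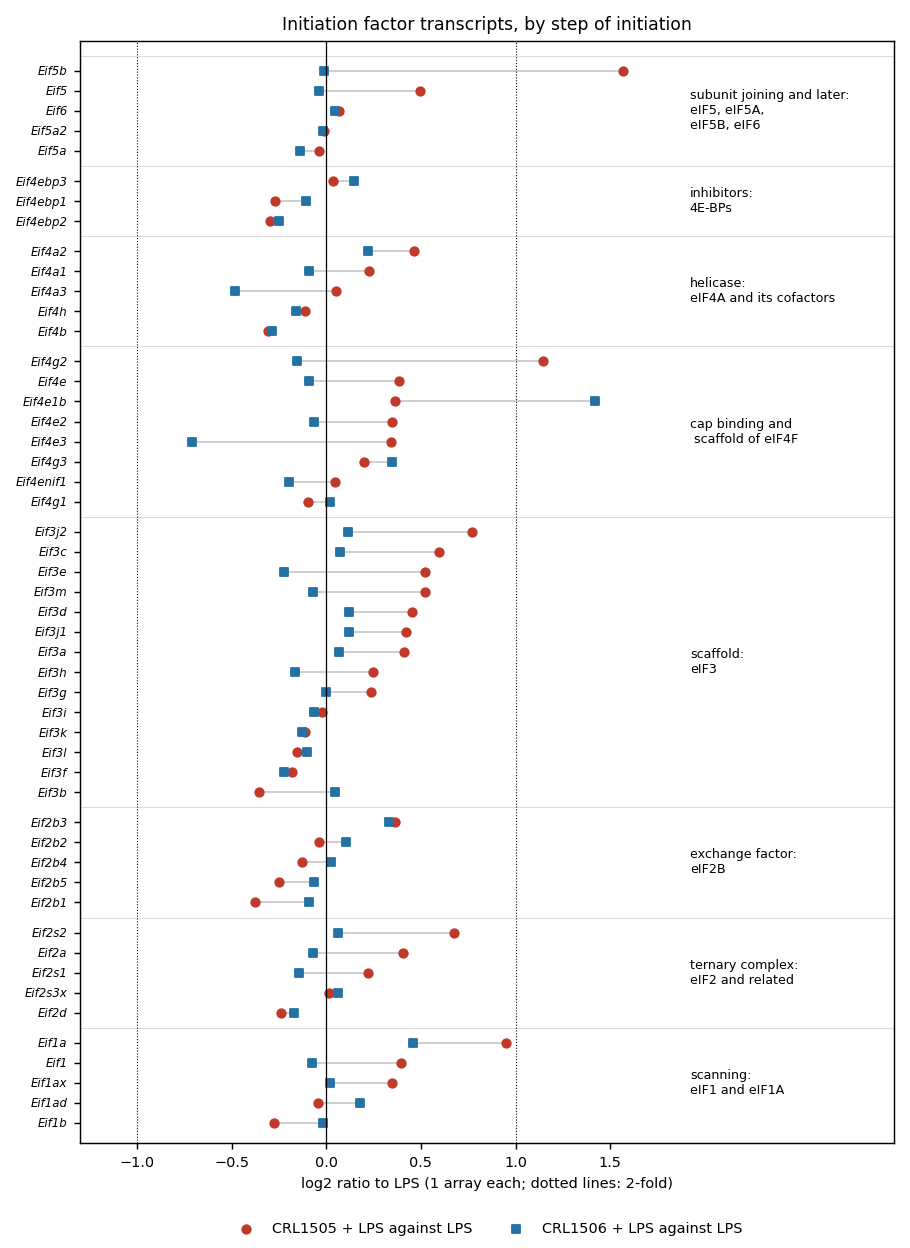
Log2 ratio to LPS of each of the 50 measured initiation factors with CRL1505 + LPS (red circles) and CRL1506 + LPS (blue squares), 1 array each, ordered by step of initiation, with dotted lines at 2-fold. Red circles pass 2-fold for *Eif5b* (1.56) and *Eif4g2* (1.15) and a blue square only for *Eif4e1b* (1.42).

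Among the scanning factors, *Eif1a*, a copy of the factor that binds the ribosomal A site, had levels of 3.71 with LPS, 4.66 with CRL1505 + LPS and 4.17 with CRL1506 + LPS. Both strains lay above LPS, by 0.95 and 0.46, beyond the yardstick of each. *Eif1ax*, its X-linked relative, had levels of 4.77, 5.12 and 4.79 in the same order, so that only CRL1505 + LPS stood apart (0.35). *Eif1*, which guards the choice of the start codon, gave 6.18, 6.57 and 6.10. Its second probe went the same way, with ratios of 0.52 and -0.30. *Eif1b*, a close relative of *Eif1*, went the other way with CRL1505 + LPS (-0.27), and *Eif1ad* was indistinguishable from LPS (-0.04 and 0.18).

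In the ternary complex, *Eif2s2*, the beta subunit of eIF2, had levels of 6.32 with LPS, 7.00 with CRL1505 + LPS and 6.38 with CRL1506 + LPS. The CRL1505 + LPS array stood alone, at 0.67 above LPS, although 6 of the 20 spots nearest to this probe on that array were uneven. A second, dimmer *Eif2s2* probe, which lies 12074 bases upstream and is assigned to another transcript, gave -0.44, 0.16 and 1.31, with the largest value under CRL1506 + LPS (1.75 above LPS). The alpha subunit *Eif2s1*, the target of the stress kinases, had levels of 4.61, 4.83 and 4.47 and ratios within the yardstick (0.22 and -0.15). The gamma subunit *Eif2s3x* was level on its brightest probe, at 1.94, 1.95 and 2.0, whereas a probe 9879 bases upstream was at 0.28, -0.49 and 0.84. *Eif2a*, which despite its symbol is not a subunit of eIF2 but a separate factor that can deliver initiator tRNA, gave 0.06, 0.46 and -0.01. *Eif2d*, a related delivery factor, was lower with both strains (-0.24 and -0.17), past the yardstick with CRL1505 + LPS only.

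Of the 5 subunits of eIF2B, which recharges eIF2 with GTP, none reached 2-fold and 3 passed the yardstick. *Eif2b1*, the regulatory alpha subunit, had levels of 1.76, 1.38 and 1.67, and the dip with CRL1505 + LPS (-0.38) was the lowest ratio of any initiation factor in that comparison. A far dimmer *Eif2b1* probe gave ratios of 0.12 and 0.47. *Eif2b3* was higher with both strains by similar amounts on its brightest probe (2.23, 2.59 and 2.57). Its dimmer probes gave 0.32 and 0.29 with CRL1505 + LPS, but 0.04 and 0.15, within the yardstick, with CRL1506 + LPS. *Eif2b5*, the catalytic epsilon subunit, gave 2.47, 2.23 and 2.41, a ratio of -0.25 with CRL1505 + LPS. *Eif2b2* and *Eif2b4* were within the yardstick in both comparisons.

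For eIF3, the large scaffold on the small subunit, 14 genes were measured, and 12 were higher with CRL1505 + LPS than with CRL1506 + LPS. The count of 14 that exceeded the median of all genes in that comparison fell from 11 to 7 under other normalizations. *Eif3j2* had levels of 3.61 with LPS, 4.38 with CRL1505 + LPS and 3.72 with CRL1506 + LPS, a ratio of 0.77 for CRL1505. Its near-identical copy *Eif3j1* gave 2.33, 2.75 and 2.45, and the 2 copies may share signal. *Eif3c* was at 6.33, 6.93 and 6.40, and its second probe repeated the ratio of CRL1505 + LPS (0.60 and 0.56). *Eif3a*, the largest subunit, was at 4.82, 5.23 and 4.89. *Eif3m* (0.52), *Eif3e* (0.52) and *Eif3d* (0.45) completed the subunits at 0.4 or above with CRL1505 + LPS, together with *Eif3j1* (0.42) and *Eif3a* (0.41). On the low side stood *Eif3b*, a core subunit, with -0.35, while *Eif3f*, *Eif3i*, *Eif3k* and *Eif3l* lay between -0.18 and -0.02 and *Eif3g* at 0.24. A dim upstream probe of *Eif3d* disagreed with the bright one (-0.44 against 0.45 with CRL1505 + LPS), and 2 dimmer probes of *Eif3k* gave 0.27 and 0.65 with CRL1506 + LPS where the bright one gave -0.13.

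One eIF3 probe, for *Eif3h*, was spotted 10 times on each array and shows the precision within an array. Its 10 ratios to LPS ran from 0.17 to 0.36 with CRL1505 + LPS (mean 0.25, SD 0.06) and from -0.24 to -0.11 with CRL1506 + LPS (mean -0.16, SD 0.05), so that the strains did not overlap over repeated spots. This spread belongs to a single hybridisation and holds no variation between cultures.

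The scaffold gene *Eif4g2* encodes DAP5, an eIF4G relative without the eIF4E-binding part that drives cap-independent initiation. Its brightest probe (mm9 chr7:118216077-118216136, minus strand) had levels of 3.84 with LPS, 4.99 with CRL1505 + LPS and 3.69 with CRL1506 + LPS. CRL1505 + LPS stood alone, 2.21-fold above LPS and 2.47-fold above CRL1506 + LPS. On a second probe CRL1505 + LPS was also highest (2.40, 3.38 and 2.57, a ratio of 0.98), while CRL1506 + LPS lay slightly above LPS instead of below it. The most upstream probe, at 6304 bases from the first, departed from this, with levels of 2.94, 3.0 and 3.56. There CRL1505 + LPS was close to LPS (0.07) and CRL1506 + LPS higher (0.62). The ratio of the gene to LPS stayed above 0 in all 12 alternatives, the mean over its probes among them, at 0.64 to 1.44. It was past 2-fold in 7 of them. These include the filters on dim, outlier and uneven spots, which could not change the ratio of this evenly detected probe. Quantile normalization, spike-in scaling, normexp, the deposited table and the mean over probes put it under 2-fold.

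The other eIF4G genes lay closer to LPS. *Eif4g1*, the main scaffold, was level on its brightest probe (4.83, 4.73 and 4.85), while 3 dimmer upstream probes were lower with CRL1505 + LPS (-0.34, -0.49 and -0.73) and higher with CRL1506 + LPS (0.30, 0.41 and 0.51). *Eif4g3* was at 3.45, 3.65 and 3.79 on its brightest probe, and its 4 upstream probes did not share a direction with CRL1505 + LPS. Of these, 2 gave -0.54 and -0.83, and 2 that were not well above background with LPS gave lower bounds of 1.53 and 1.49.

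Of the cap binders, *Eif4e* itself was at 2.79, 3.17 and 2.70 on its brightest probe, higher with CRL1505 + LPS alone (0.38). A far dimmer *Eif4e* probe was higher with both strains (0.51 and 0.30). *Eif4e2*, a cap-binding repressor also called 4EHP, gave ratios of 0.35 and -0.06 on its brightest probe. A dimmer *Eif4e2* probe had the opposite order of the strains (0.07 and 0.32). *Eif4e3*, an atypical cap binder, was at -0.98 with LPS, -0.64 with CRL1505 + LPS and -1.69 with CRL1506 + LPS, so that the strains lay on opposite sides of LPS and 2.07-fold apart. *Eif4e1b*, known as an oocyte form, was close to background, and its 5 probes did not share a direction. The brightest was at -4.20, -3.84 and -2.78, which placed CRL1506 + LPS 2.67-fold above LPS, while the next was at -3.52, -3.78 and -3.96 and had the opposite order. In the deposited table, where the latter was the brighter, the ratio of CRL1506 + LPS to LPS was -0.19. *Eif4enif1*, which carries eIF4E into the nucleus, was indistinguishable from LPS (0.04 and -0.20).

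The helicase genes differed little. *Eif4a1* was at 7.14, 7.36 and 7.05, within the yardstick. *Eif4a2* gave 3.77, 4.23 and 3.99 on its brightest probe, with both strains above LPS (0.46 and 0.22), but 2 upstream probes gave -0.27 and -0.07 with CRL1505 + LPS and 0.44 and 0.68 with CRL1506 + LPS. *Eif4a3*, the helicase of the exon junction complex, was at 1.94, 1.99 and 1.46, lower with CRL1506 + LPS alone (-0.48). The cofactor *Eif4b* was lower with both strains on its brightest probe (-0.31 and -0.29), while a dimmer upstream probe gave -0.51 and 0.09. *Eif4h* was within the yardstick.

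No 4E-BP was higher than LPS beyond the yardstick with either strain. *Eif4ebp1* was at 4.74, 4.47 and 4.63 and *Eif4ebp2* at 1.66, 1.37 and 1.41, so that with CRL1505 + LPS both were lower by a little more than the yardstick (-0.27 and -0.29), and with CRL1506 + LPS *Eif4ebp2* was (-0.25). *Eif4ebp3* was within it (0.04 and 0.15). Under the median shift the ratios of the first pair with CRL1505 + LPS were 0.02 and 0.00, while the median of all genes stood at 0.33.

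**Figure D4:**
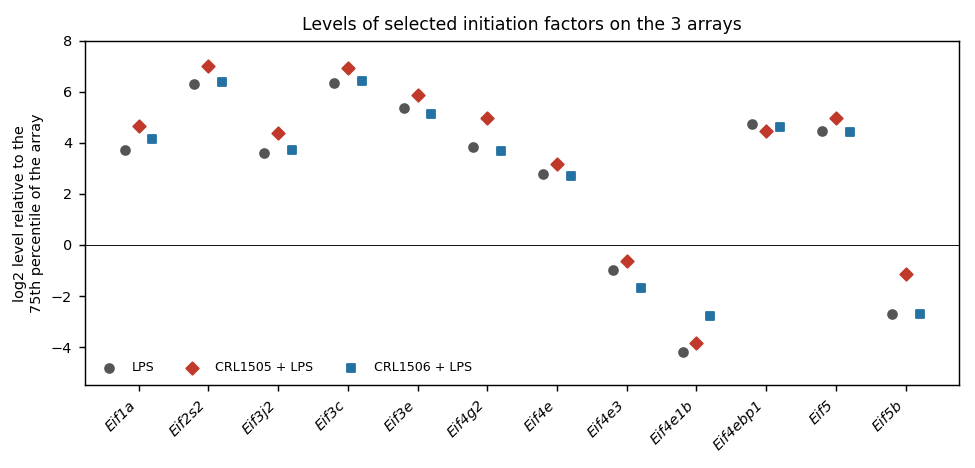
Levels (log2, relative to the 75th percentile of the array) of 12 initiation factors with LPS (grey circles), CRL1505 + LPS (red diamonds) and CRL1506 + LPS (blue squares), 1 array each. Points are to be compared within a gene only, since probes differ in brightness. The red diamond lies highest for all genes shown except *Eif4e1b* and *Eif4ebp1*. The 12 were picked for display and do not stand for all 50 measured. Of those 50, 31 were higher with CRL1505 + LPS than with LPS, and 33 higher than with CRL1506 + LPS.

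At subunit joining, *Eif5b*, the GTPase that docks the large subunit, gave the highest ratio of any initiation factor with CRL1505 + LPS. Its single probe (mm9 chr1:38110276-38110335, plus strand) was at -2.70 with LPS, -1.13 with CRL1505 + LPS and -2.71 with CRL1506 + LPS. LPS and CRL1506 + LPS coincided, and CRL1505 + LPS was 2.96-fold above LPS and 2.99-fold above CRL1506 + LPS. The difference from LPS stayed past 2-fold in all 12 alternatives (1.06 to 1.86). Only the 7 scalings and normalizations among them could change it, as the spot filters and the mean over probes leave a single detected probe as it is. No second probe was there to check this dim one. *Eif5*, which triggers GTP hydrolysis by eIF2, was at 4.47, 4.97 and 4.43, with CRL1505 + LPS alone above LPS (0.50). *Eif5a*, the hypusine-bearing elongation and initiation factor, was at 8.19, 8.15 and 8.05, within the yardstick, as was *Eif5a2* (-0.01 with CRL1505 + LPS and -0.02 with CRL1506 + LPS). A dimmer *Eif5a* probe was lower with CRL1506 + LPS (-0.54). *Eif6*, which keeps the large subunit free until it joins, was at 5.97, 6.03 and 6.01, and a dim upstream probe gave 0.67 with CRL1505 + LPS.

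Of the 27 genes with several probes, 23 had more than 1 probe with a measured ratio. In 11 of these 23, the measured ratios differed by more than 0.5 in at least 1 strain. For 21 initiation factors the most upstream and the most downstream probe lay on the same strand, and both were detected on every array. The upstream probe gave the lower ratio in 12 of 21 with CRL1505 + LPS (median difference -0.08) and the higher ratio in 13 of 21 with CRL1506 + LPS (median difference 0.22). Between the strains the upstream probe was lower in 16 of 21 (median difference -0.16). The array as a whole showed the same signs. Over 5158 genes the upstream probe was lower in 63.0% with CRL1505 + LPS (median -0.13) and higher in 63.2% with CRL1506 + LPS (median 0.14). Among 1040 genes whose probes were within 1 log2 unit of brightness the medians were -0.13 and 0.14, so that the pattern was as large between probes of like brightness. Its part in the ratios of single initiation factors was not tested. In 18 of the 21 pairs the downstream probe was the brighter, and in none of the 21 were the probes within 1 log2 unit. Averaging over all probes of a gene lowered the median of the initiation factors with CRL1505 + LPS from 0.21 to 0.05.

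**Figure D5:**
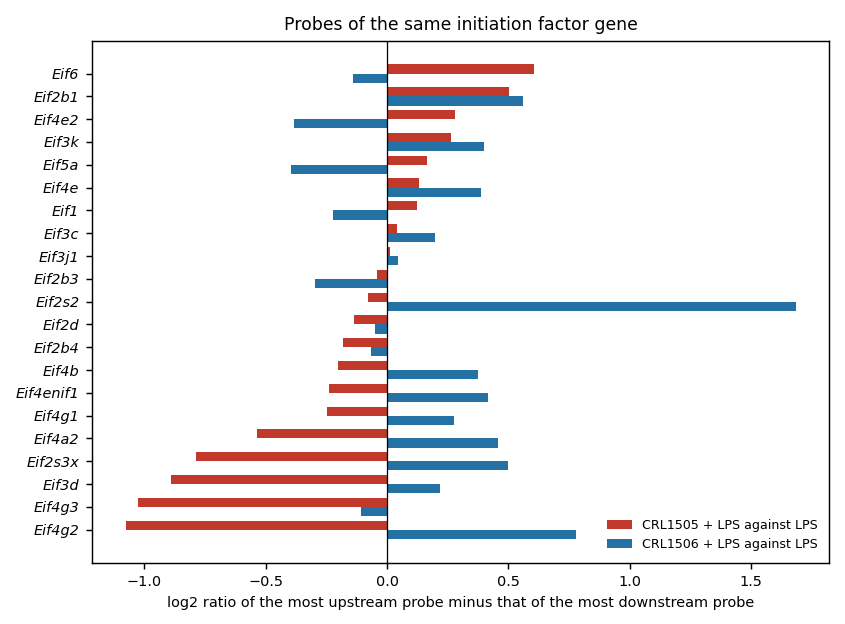
Log2 ratio to LPS of the most upstream probe minus that of the most downstream probe in 21 initiation factor genes, for CRL1505 + LPS (red) and CRL1506 + LPS (blue). Red bars point left in 12 of 21 genes and blue bars point right in 13 of 21, with *Eif4g2* at -1.08 and 0.78.

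Genes that act on the initiation factors were taken as 4 eIF2alpha kinases, 5 phosphatase genes and 16 mTOR, MNK and S6 kinase genes. Among them 3 differed at least 2-fold from LPS, 2 higher and 1 lower, all with CRL1505 + LPS. In that comparison 9.92% of all genes were at least 2-fold higher and 8.41% lower. With CRL1506 + LPS the shares of all genes were 5.67% and 3.52%. *Ppp1r15a* (GADD34), the stress-induced subunit that directs the phosphatase to eIF2, was at 4.49 with LPS, 5.53 with CRL1505 + LPS and 5.04 with CRL1506 + LPS, ratios of 1.03 and 0.54. *Ppp1r15b* (CReP), its constitutive counterpart, was at 1.87, 2.99 and 1.74, with CRL1505 + LPS alone above LPS (1.12). These were the 2 of 5 phosphatase genes past 2-fold with CRL1505 + LPS, and none was with CRL1506 + LPS. The catalytic subunits *Ppp1ca* (-0.25) and *Ppp1cc* (-0.42) were lower with CRL1505 + LPS and *Ppp1cb* higher (0.68). None of the 4 eIF2alpha kinases reached 2-fold with either strain. The largest ratio was that of *Eif2ak2* (PKR) with CRL1505 + LPS, at 0.63, and with CRL1506 + LPS it was that of *Eif2ak3* (PERK), at -0.54. In the mTOR, MNK and S6 kinase list, 1 of 16 genes was at least 2-fold lower with CRL1505 + LPS, namely *Deptor*, an inhibitor of mTOR, at -1.42, -3.01 and -2.28, and none was higher. With CRL1506 + LPS no gene of that list passed 2-fold. *Ppp1r15a* and *Ppp1r15b* fell short of 2-fold under the spike-in scaling (0.53 and 0.61), while *Deptor* stayed past it under all normalizations (-2.10 to -1.04).

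None of the poly(A)-binding proteins (5 genes), elongation factors (7 measured of 8), termination and recycling factors (7 of 8) or hypusine enzymes (2 genes) differed 2-fold from LPS with either strain. Their medians with CRL1505 + LPS were 0.32, 0.16, 0.24 and -0.06. The largest ratios were those of *Pabpc4*, with 0.43 for CRL1506 + LPS, of *Eef1e1* (0.61) and *Denr*, a reinitiation factor (0.66), with CRL1505 + LPS, and of *Dohh*, which completes hypusine, with -0.44 for CRL1505 + LPS.

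The upstream sequences of the initiation factors were searched for 3 features by letters alone. RefSeq promoters (GRCm38.p6) were at hand for 40 of the 52 genes (52 promoters). The E-box CACGTG, a palindrome bound by MYC, MAX and related factors, stood within 250 bases before the start in 11 of 52 promoters (21.2%), belonging to 9 genes, and in 6.02% of all 32851 promoters. The amino acid response motif TGATGNAAT, searched on both strands, was in none of the 52 and in 0.816% of all promoters. A start like that of terminal oligopyrimidine mRNAs (C followed by at least 4 pyrimidines, within 20 bases around the start) was in 28.8% of the initiation factor promoters and 25.5% of all. The following stretches of 120 bases, upstream of the start, are shown because they hold the E-box, in capitals, in factors of different steps. That of *Eif5b*, the gene with the highest ratio, holds none.

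Eif3f, chr7:108934287-108934406, plus strand: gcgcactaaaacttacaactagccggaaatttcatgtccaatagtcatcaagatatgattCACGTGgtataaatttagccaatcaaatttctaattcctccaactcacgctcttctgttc
Eif4g1, chr16:20672607-20672726, plus strand: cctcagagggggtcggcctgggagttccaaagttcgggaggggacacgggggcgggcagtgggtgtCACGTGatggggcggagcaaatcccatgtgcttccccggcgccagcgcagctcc
Eif4h, chr5:134639446-134639565, minus strand: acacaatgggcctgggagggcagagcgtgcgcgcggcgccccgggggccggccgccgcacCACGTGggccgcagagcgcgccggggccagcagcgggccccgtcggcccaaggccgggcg
Eif5a, chr11:69921401-69921520, minus strand: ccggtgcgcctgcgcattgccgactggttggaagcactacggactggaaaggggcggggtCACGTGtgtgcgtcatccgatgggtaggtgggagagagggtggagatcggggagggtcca
Eif5a2, chr3:28781075-28781194, plus strand: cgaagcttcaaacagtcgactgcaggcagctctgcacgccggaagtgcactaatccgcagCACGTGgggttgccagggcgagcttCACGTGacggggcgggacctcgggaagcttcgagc
Eif5b, chr1:37997890-37998009, plus strand: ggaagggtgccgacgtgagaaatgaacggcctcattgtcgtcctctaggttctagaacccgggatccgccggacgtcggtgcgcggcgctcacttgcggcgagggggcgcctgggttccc

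The 9 genes with the E-box (*Eif1b*, *Eif3f*, *Eif3k*, *Eif4a1*, *Eif4e*, *Eif4g1*, *Eif4h*, *Eif5a* and *Eif5a2*) had ratios to LPS between -0.27 and 0.38 with CRL1505 + LPS, of which 7 were below 0 (median -0.10). The 29 measured genes with a promoter and no E-box ran from -0.38 to 1.56, with 10 below 0 (median 0.22). With CRL1506 + LPS the medians were -0.09 and -0.01. Of all genes compared, 50.7% were above 0 with CRL1505 + LPS and 42.7% with CRL1506 + LPS. The ratios of other genes with the E-box were not examined, and a link between E-box and ratio was not tested. Of the 4 genes past 2-fold in any comparison, 1 (*Eif5b*) could be searched.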

How the data were processed

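Total RNA of RAW macrophages was hybridised to SurePrint G3 Mouse GE arrays in 1 colour. For each array the authors deposited Feature Extraction output (version 12.0.3.1 in the files), in which the processed signal is an intensity corrected for local background and not normalized between arrays, and a table of log2 values normalized between arrays, with a median of 6.77 on each. The table differed from normexp-corrected, quantile-normalized log2 intensities by a median of 0.05 to 0.06, and its rows were matched to spots by number. Probe positions are on mm9.

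From each log2 processed signal the 75th percentile over gene spots was subtracted (signals of 743, 517 and 698 for LPS, CRL1505 + LPS and CRL1506 + LPS). Spots marked as outliers were left out (none of an initiation factor), repeated spots averaged, and the probe with the highest mean taken for a gene. A probe had to be well above background on 1 of the compared arrays, and where it was so on only 1, the ratio was held to a lower bound (none among the initiation factors). The 2-fold threshold follows the authors' methods, whose test needs replicates and was not run. The number of arrays limits the precision. Named were all initiation factors past 2-fold, the 2 largest ratios of each group, those whose probes differed by over 0.5 and a fixed set of 16, and of the related lists the genes past 2-fold or otherwise the largest ratio. Members and lists were chosen with earlier results of these data known. The alternatives were the median shift, a 75th percentile restricted to detected probes, quantile and cyclic loess normalization, scaling to 8 spike-in probes, normexp (offset 50), the deposited table, other filters on dim, outlier and uneven spots, the mean over probes, and a 1.5-fold threshold. Python 3.11.15 with pandas 2.3.3 and R 4.3.3 with limma 3.58.1 were used, and the procedure was tested on simulated data.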

Additional observations from a re-analysis of the deposited data

Results flagged for a closer look

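Initiation factors whose ratios to LPS lay on opposite sides of 0 with the 2 strains, each by more than 0.2, were *Eif3e* and *Eif4e3*. *Eif3e*, an eIF3 subunit, had ratios of 0.52 with CRL1505 + LPS and -0.22 with CRL1506 + LPS. *Eif4e3*, the atypical cap binder, had 0.34 and -0.71. Each rests on a single probe and 1 array per condition, both ratios share the LPS array, and the difference between the strains was not tested. Under the spike-in scaling the ratios of CRL1505 + LPS were 0.02 for *Eif3e* and -0.16 for *Eif4e3*.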

How the results depend on the processing

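The median ratio of the initiation factors moved by more than the spread between probes only under the median shift (0.50 for CRL1505 + LPS against LPS and 0.66 between the strains) and under the spike-in scaling (-0.30 and -0.22), which shift all genes alike. The number at least 2-fold higher with CRL1505 + LPS than with LPS, 2 as reported, was 4 under the median shift, 1 under quantile normalization, spike-in scaling, normexp, the deposited table and the mean over probes, and 6 at 1.5-fold. For CRL1506 + LPS it was 0 under normexp, the deposited table and the mean over probes, against 1 as reported, and 2 without uneven spots, where the upstream probe of *Eif2s2* stood for its gene. The number lower, 0 as reported, was 1 at 1.5-fold. Between the strains, 3 were higher as reported, 10 under the median shift, 1 under spike-in scaling, normexp and the deposited table, and 7 at 1.5-fold. The number lower was 0 under the median shift, quantile, cyclic loess, normexp, the deposited table and the mean over probes, and 2 without uneven spots, against 1 as reported. *Eif4e1b* changed sign in the deposited table, to -0.19 for CRL1506 + LPS against LPS and 0.16 between the strains, since another of its probes was the brightest there. With the slide as a block no fit was run, because the CRL1505 + LPS array was alone on its slide. No paired analysis was possible because each condition had 1 array.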
